A study of Mus musculus with 24 samples.

Results

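The comparison described here set the ventral prostate of FVB mice against that of BALB/c mice, 2 of 6 inbred strains in the series (the others were AKR, SWR, 129X1 and C57BL/6). It used the 4 FVB and the 4 BALB/c arrays of 24, chosen by the strain in the sample titles, and 22626 of the 22690 probe sets, all but the 64 controls of the array maker. Every mouse was wild type, 8 weeks old, untreated and on a standard diet, each strain had 4 biological replicates, and total RNA was hybridised to Affymetrix MOE430A arrays. The labels do not say whether tissue of several mice was pooled, so the p-values measure a spread between samples. That spread was estimated over all 24 arrays of the 6 strains, so an SE need not match the SDs of FVB and BALB/c. By its title the series looked for genes that modify cancer by comparing expression in parental strains, and this pair asks which transcripts differ between 2 of those parents.

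The ventral lobe of the mouse prostate is lined by tall luminal cells that, driven by the androgen receptor, make and secrete large amounts of a few proteins. These cells lie on a thin layer of basal cells and are wrapped in smooth muscle and fibroblasts. Because secretion dominates the lobe, its luminal cells depend on the protein folding machinery of the endoplasmic reticulum, and androgen sets the level of many of their transcripts. FVB and BALB/c are albino strains kept by brother and sister mating, and they carry different forms of the H2 histocompatibility region on chromosome 17. Tissue RNA was measured in bulk, so fewer cells of a type and less RNA per cell cannot be told apart.

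Some secretions listed for the ventral lobe were bright in both strains and others were faint. A gene listed as a marker of other lobes was also bright. Spink1, a protease inhibitor secreted by the luminal cells, had log2 means of 12.96 ± 0.31 (SD, n = 4) in FVB and 13.36 ± 0.07 in BALB/c. Probasin (Pbsn), another androgen-driven secretion, stood at 12.17 ± 0.37 and 12.92 ± 0.19. Pate4, Crisp3 and Ceacam10, also listed as ventral secretions, had means between 4.17 and 5.29, near the bottom of the scale in both strains. Lcn2 had means of 6.31 in FVB and 5.83 in BALB/c. Of 5 seminal vesicle genes, Svs2, Svs4 and Svs6 lay near the bottom of the scale in both strains, between 4.10 and 4.61, while Svs3a and Svs5 were a little brighter, between 5.54 and 5.87. Msmb, the 1 measured gene listed as a marker of the dorsal and anterior lobes, was at 12.47 ± 0.32 in FVB and 13.55 ± 0.13 in BALB/c. It was bright in AKR, SWR, 129X1 and C57BL/6 as well, with means of 11.82 to 12.63. Whether Msmb is confined to the dorsal and anterior lobes, and whether the samples held tissue of them, was not tested. Levels here are log2 of the intensity plus 16, folds are taken on that scale, which compresses those of faint transcripts, and a level is called near the bottom of the scale when it was below its own array's 40th percentile (5.59 to 5.71) on all 4 arrays of a strain. The deposited table has no detection calls, so it is not known which of those levels were above background. Arrays within FVB correlated at 0.965 to 0.972, arrays within BALB/c at 0.950 to 0.964 and arrays of the 2 strains with each other at 0.938 to 0.951. With arrays, precision rests on how many there are, here 4 a strain. The 20 brightest probe sets took 5.02% to 5.76% of the signal on BALB/c arrays and 3.75% to 4.80% on FVB arrays.

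Of 22626 probe sets, 1793 (7.92%) differed between the strains by limma at an adjusted p under 0.05. FVB was higher at 926 (4.09%) and lower at 867 (3.83%), and the median difference over all probe sets was 0.0055 on the log2 scale. With the deposited intensities left unscaled, 71.0% of the calls were higher in FVB, 1429 against 584, in place of 51.6%. At 319 probe sets (1.41%) the difference was at least 2-fold, with 208 higher and 111 lower in FVB. The 4 FVB arrays did not overlap the 4 BALB/c arrays at 2615 probe sets (11.6%). Among the 15 pairs of strains, this pair had the sixth largest number of calls, between 1045 and 3158. With each gene taken at its brightest probe set, 1051 of 12393 genes (8.48%) were called, 539 (4.35%) higher and 512 (4.13%) lower in FVB, and 174 (1.4%) by at least 2-fold.

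**Figure D1:**
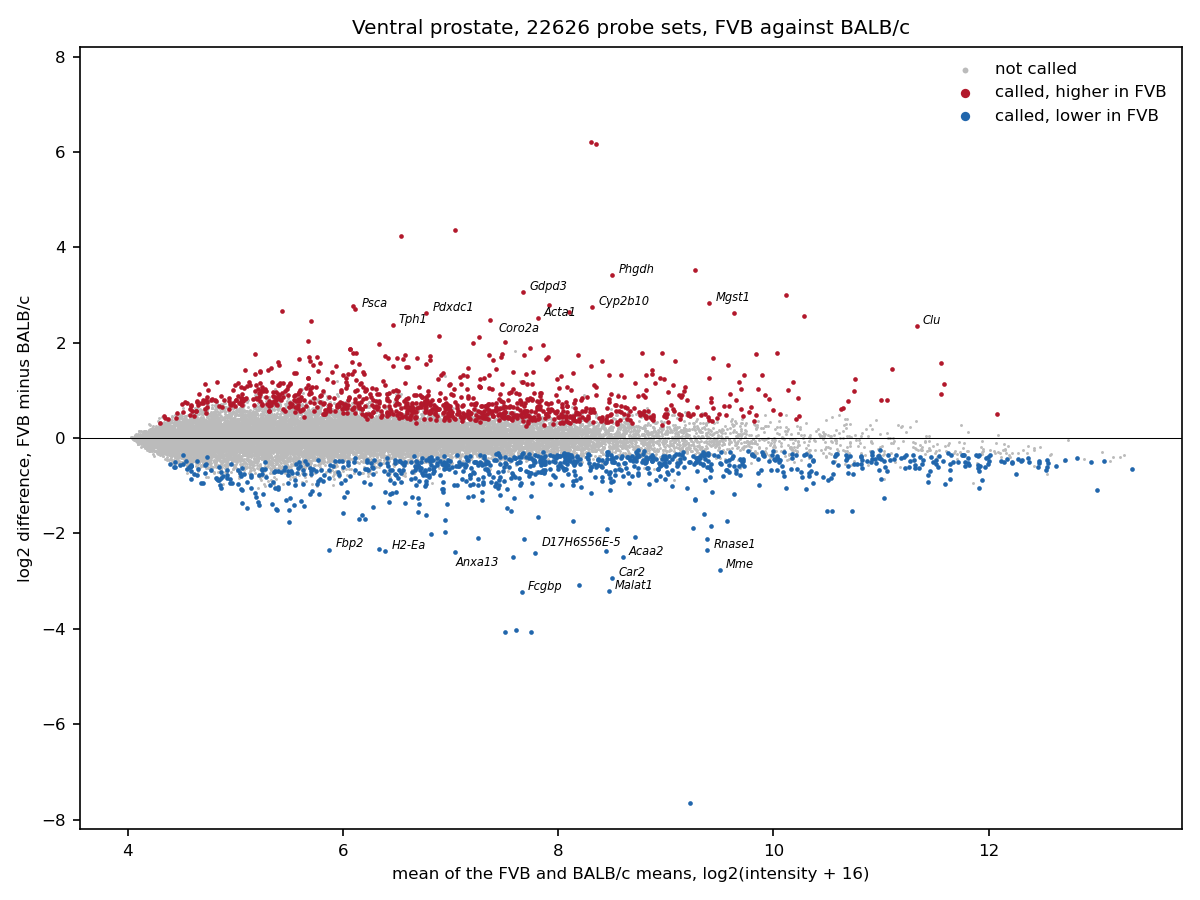
Each point is 1 of 22626 probe sets, with the mean of the FVB and BALB/c means on the x axis (log2 of intensity plus 16) and the log2 difference, FVB minus BALB/c, on the y axis. The 926 probe sets called higher in FVB are red, the 867 called lower are blue, and the 10 largest differences named in each direction carry their gene symbols. The lowest point, at a difference of -7.65, is a probe set shared by 2 gene symbols.

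Among the genes higher in FVB, clusterin (Clu), a secreted chaperone and an inhibitor of complement, rose at a high level of signal. Its log2 values were 12.62, 12.45, 12.79 and 12.18 in FVB and 9.91, 10.47, 9.99 and 10.23 in BALB/c, a 5.12-fold difference (log2 2.36 ± 0.14, SE; adjusted p = 9.33e-12). Clu is among the 30 genes named for their differences, which were chosen only from genes without overlap between the strains. All 4 Clu probe sets were called in this direction. Cyp2b10, a drug-metabolising cytochrome P450, was at 9.53, 9.75, 9.98 and 9.48 in FVB and 6.73, 6.63, 7.46 and 6.95 in BALB/c (6.70-fold, adjusted p = 8.49e-09), with all 3 probe sets called. Mgst1, a membrane-bound glutathione transferase, was at 10.64 to 11.02 in FVB and 7.44 to 8.37 in BALB/c (7.09-fold, adjusted p = 3.28e-11) at 1 probe set, while its other, fainter one differed by -0.04 and was not called. Both enzymes act on foreign compounds. Gdpd3, a lysophospholipase of the glycerophosphodiester phosphodiesterase family, differed 8.40-fold, from 6.14 ± 0.20 in BALB/c to 9.21 ± 0.19 in FVB. Psca, a surface antigen of prostate epithelium, had values of 7.44, 7.77, 7.61 and 7.04 in FVB and of 4.51, 5.02, 4.54 and 4.99, near the bottom of the scale, in BALB/c. Its 6.50-fold difference became 2.99-fold with a pseudocount of 64 and 11.1-fold with one of 4, so its size depended on the pseudocount while its direction and call did not. In all, 14 of the 30 genes named for their differences moved by over 1.5 times with another pseudocount. They include Tph1 (2.85-fold with 64 and 7.05-fold with 4), Acp5 (2.06-fold and 6.99-fold), Otub1 (2.10-fold and 5.21-fold), H2-Ea (2.81-fold and 7.19-fold) and Fbp2 (2.43-fold and 8.53-fold), and the others are Gdpd3, Pdxdc1, Coro2a, Ctla2a, Slc25a29, Fcgbp, Cfap298 and Hyou1.

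The other genes among the 15 largest positive differences ranged from 3.46-fold to 10.7-fold. Tph1, the rate-limiting enzyme of serotonin synthesis outside the brain, was at 7.75, 8.01, 7.35 and 7.46 in FVB and 5.45, 5.15, 5.60 and 4.93 in BALB/c (5.13-fold, adjusted p = 4.90e-06). Acta1, the actin of skeletal muscle, was at 8.70 to 9.24 in FVB and 6.35 to 6.88 in BALB/c (5.72-fold, adjusted p = 3.29e-08). The remaining genes at a single probe set were Coro2a, an actin-binding coronin (5.56-fold), Ctla2a, a cysteine protease inhibitor (4.39-fold), Acp5, the tartrate-resistant acid phosphatase (4.08-fold), and S100a4, a calcium-binding protein (3.96-fold). Acp5 and the mitochondrial carrier Slc25a29 (3.46-fold) had their BALB/c arrays near the bottom of the scale. Otub1, a deubiquitinase (3.64-fold), Phgdh, the first enzyme of serine synthesis (10.7-fold), and Pdxdc1, a decarboxylase-like protein (6.16-fold), had probe sets that disagreed. The values for Phgdh and Pdxdc1 are given below.

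Among the genes lower in FVB, the membrane peptidase Mme (neprilysin), which cleaves small peptides such as substance P, was at 7.80, 8.00, 8.17 and 8.49 in FVB and 11.04, 10.77, 11.00 and 10.74 in BALB/c. The difference was 6.83-fold (log2 -2.77 ± 0.12, SE; adjusted p = 5.43e-14), without overlap and at both probe sets. Tac1, which encodes substance P itself, was at 8.37, 8.56, 8.32 and 8.07 in FVB and 10.39, 10.62, 10.38 and 10.37 in BALB/c (4.32-fold lower, adjusted p = 1.87e-09). The peptide's precursor and a peptidase that degrades it were therefore both lower in FVB. Car2, a carbonic anhydrase, was at 6.85 to 7.17 in FVB and 9.17 to 10.57 in BALB/c (7.63-fold, adjusted p = 1.68e-10). Ramp1, a subunit of the receptor for the neuropeptide CGRP, was at 7.55 to 7.72 and 9.49 to 10.02 (4.22-fold, adjusted p = 2.54e-10). No FVB array reached the lowest BALB/c array for either gene, as the choice of these genes required.

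Fcgbp, a mucus protein that binds the Fc part of IgG, showed the widest spread of the named genes. Its values were 6.63, 5.17, 6.01 and 6.38 in FVB and 7.79, 11.41, 9.01 and 8.90 in BALB/c, so that BALB/c arrays differed from each other by more than FVB differed from the lowest of them. The difference was 9.38-fold (log2 -3.23 ± 0.45, SE; adjusted p = 3.05e-05), and on the log2 scale it was -2.52 without BALB/c replicate 2 (adjusted p = 7.02e-06). Rnase1, a secreted ribonuclease, varied in the other strain, with 7.75, 7.30, 8.58 and 9.20 in FVB and 10.35, 10.56, 10.57 and 10.76 in BALB/c (5.11-fold, adjusted p = 0.00113). Anxa13, an annexin of epithelial cells, was 5.67-fold lower in FVB, and Fabp5, a carrier of fatty acids, was 3.72-fold lower at both of its probe sets. Acaa2, a thiolase of mitochondrial fatty acid oxidation, was 5.64-fold lower, called at 2 of 3 probe sets. D17H6S56E-5, a transcript of the H2 region, was 5.28-fold lower at both probe sets. Fbp2, the muscle form of fructose bisphosphatase, and Cfap298, a protein of motile cilia, had all FVB arrays near the bottom of the scale and stood at 7.04 ± 0.20 and 7.50 ± 0.33 in BALB/c. The last 3 of the 15 largest negative differences, Malat1 (9.23-fold), H2-Ea (5.16-fold) and Hyou1 (4.06-fold), differed among their own probe sets.

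**Figure D2:**
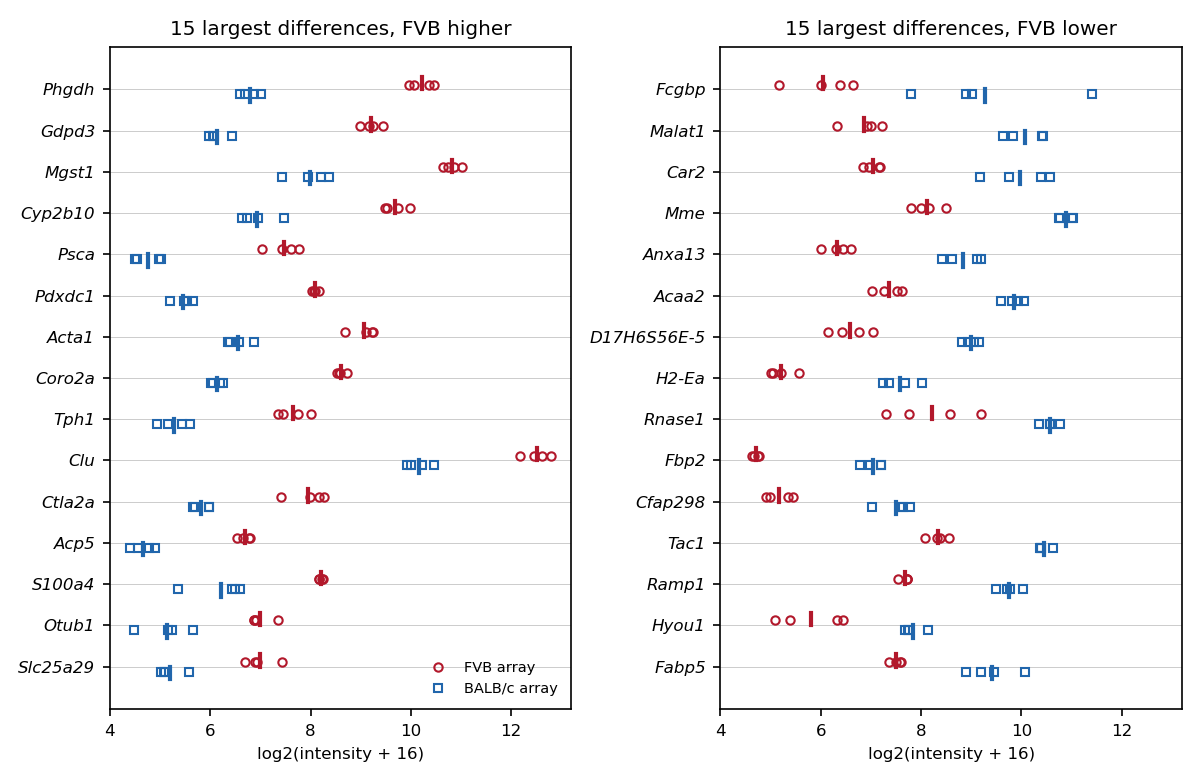
Each circle is 1 FVB array and each square 1 BALB/c array, on the scale of log2 of intensity plus 16, for the 15 genes with the largest positive (left) and the 15 with the largest negative (right) differences; vertical bars are strain means. Circles and squares do not overlap for any of the 30 genes, which is part of how they were chosen, and Fcgbp has the widest spread, from 7.79 to 11.41 in BALB/c.

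Probe sets of a gene measure different stretches of its transcripts, and they often disagreed. Of 781 genes with several probe sets and at least 1 call, 102 (13.1%) had every probe set called in the same direction, and 13 had probe sets called in both directions. Where the largest called difference was at least 2-fold, 40 of 124 genes (32.3%) had every probe set called the same way. Of the 30 genes named above, 15 had several probe sets: in 5 all were called the same way, in 8 some were not called, and in 2 (Pdxdc1 and H2-Ea) 1 probe set was called the opposite way. At the named probe set of Phgdh FVB had 10.46, 9.97, 10.36 and 10.06 and BALB/c 6.59, 7.01, 6.88 and 6.69, while its other 3 probe sets differed by 0.01, -0.18 and 0.21, none of them called. Malat1, a nuclear non-coding RNA, differed by -3.21 at 1 probe set (6.87 ± 0.38 in FVB, 10.07 ± 0.40 in BALB/c) and by -0.36 to 0.32, not called, at the other 4. For these genes only 1 probe set showed the large difference. Pdxdc1 was higher in FVB by 2.62 at one probe set and lower by 2.11 at another. Hyou1, an endoplasmic reticulum chaperone, differed by -2.02 at its named probe set and by -0.46, not called, at its brightest one. Whether sequence differences between the strains lie under these probes was not tested.

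The largest differences of all were at probe sets that cannot be given 1 gene. Of the 10 largest called differences, 5 lacked a single symbol; they are named by probe set, and were picked after their values were seen. Probe set 1451704_at, shared by 2 symbols, was at 5.70, 5.17, 5.88 and 4.84 in FVB and 13.06, 13.14, 12.95 and 13.05 in BALB/c, a log2 difference of -7.65. Probe set 1455869_at, without a symbol, was at 11.69, 11.33, 11.52 and 11.12 in FVB and 4.56, 6.08, 5.39 and 4.78 in BALB/c, a difference of 6.21. At 1431213_a_at, also without one, the means were 11.44 in FVB and 5.27 in BALB/c. All of these moved between the bright end and the faint end of the scale. Of 1793 calls, 119 were at probe sets with no symbol and 97 at probe sets with several.

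The same split appeared within H2-D1, a class I histocompatibility gene with 9 probe sets. FVB was higher at 4 of them, by 0.81 to 1.16, and lower at 3, by 4.02, 4.07 and 4.07 on the log2 scale. At the last of these FVB had 5.69 to 5.76 and BALB/c 9.73 to 9.91. Class I genes are near copies of each other and vary between strains, so the strain with more H2-D1 cannot be read from these probe sets. H2-Ea, the alpha chain of the class II E molecule, was at 5.21, 5.05, 5.56 and 5.02 in FVB, near the bottom of the scale, and at 7.36, 8.02, 7.68 and 7.25 in BALB/c (5.16-fold, adjusted p = 2.64e-06). A second probe set was also lower in FVB, by 0.92, and another was 0.41 higher with both strains near the bottom of the scale. Of 10 class II genes on the array, 3 were lower in FVB (against 4.13% of all genes) and none higher. The others were H2-Eb1, the beta chain that pairs with H2-Ea (6.89 ± 0.20 against 7.71 ± 0.16, adjusted p = 0.000198), and the invariant chain protease Ctss (6.99 ± 0.19 against 7.65 ± 0.33, adjusted p = 0.0189), whose call was lost when FVB replicate 1 was left out, and also when either of the BALB/c replicates 1 and 3 was. The chains of the class II A molecule, H2-Aa and H2-Ab1, differed by -0.35 and -0.16 and were not called. Of 23 class I and antigen processing genes, 6 were lower and 2 higher in FVB (against 4.13% and 4.35% of all genes). Among the lower ones were Pdia3, Calr and Canx, which belong to the folding machinery below, and the immunoproteasome subunits Psmb8 and Psmb9, lower by 0.49 and 0.52 with calls lost under 4 and 7 of the alternatives.

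Setting the pair beside the other 4 strains showed which parent stood apart. At 757 of the 1793 called probe sets (42.2%) only the BALB/c mean lay outside the range of the other 4 strain means, against 25.2% of all probe sets. Only the FVB mean did so at 306 (17.1%), against 15.5% of all probe sets, both did at 548 and neither at 182. FVB stood alone for Tph1 (7.64 against 5.23 to 5.76 in the other 4 strains) and Malat1 (6.87 against 10.06 to 10.48), and it was the highest strain for Clu (12.51 against 8.97 to 10.11). BALB/c stood alone for Fabp5 (9.40 against 7.45 to 7.84), Fbp2 (7.04 against 4.61 to 5.09), Rnase1 (10.56 against 7.76 to 8.58) and Coro2a (6.13 against 8.00 to 8.82). Some differences split the 6 strains into 2 groups: Gdpd3 was high only in FVB and 129X1, and Mgst1 in FVB, SWR and 129X1. These strain ranges use the values that chose the genes, and they are a description.

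**Figure D3:**
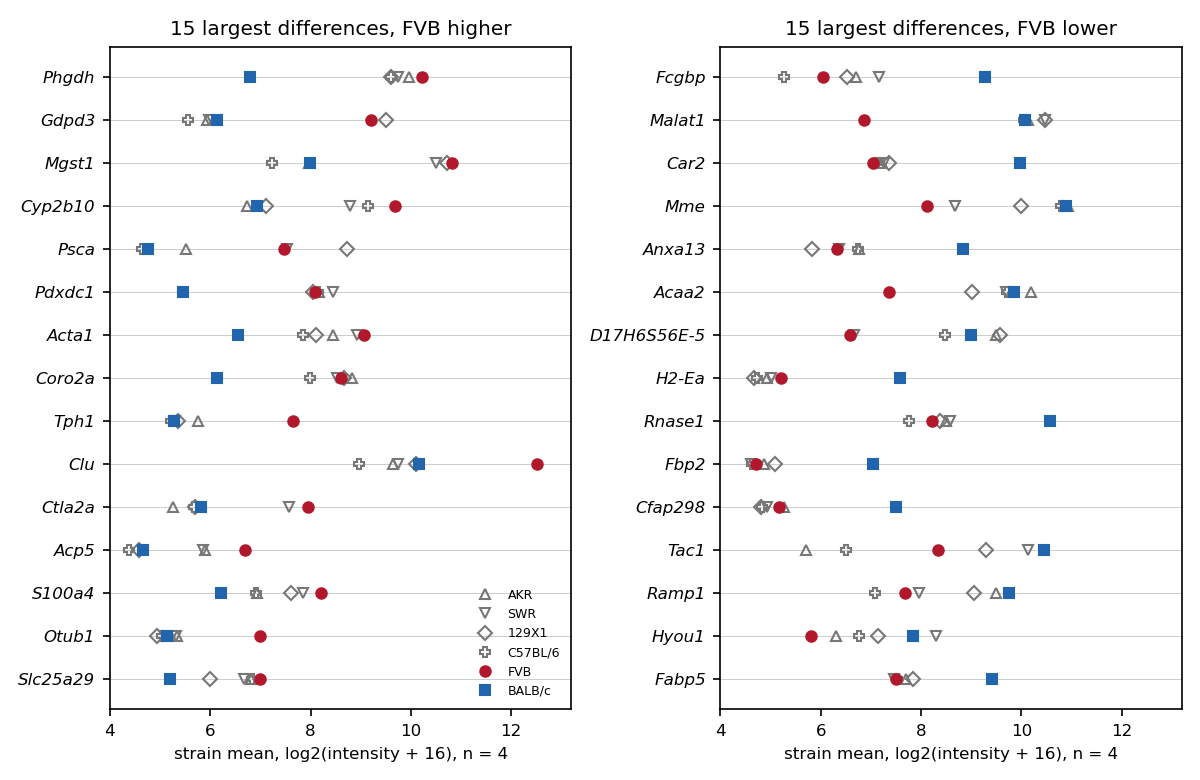
Strain means (n = 4 arrays, log2 of intensity plus 16) of the same 30 genes in all 6 strains, with FVB as red circles, BALB/c as blue squares and the other 4 strains as open grey symbols. BALB/c stands apart from the other 5 for genes such as Fabp5, Fbp2 and Coro2a, and FVB for Tph1, Clu and Malat1.

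Smooth muscle markers were higher in FVB. All 6 on the array were called, against 8.48% of all genes. None overlapped between the strains, and 12.2% of all genes were without overlap. Their median difference was 1.06, against 0.0028 over all genes. Myh11, the smooth muscle myosin heavy chain, was at 9.64, 9.46, 9.84 and 9.73 in FVB and 7.96, 7.96, 7.82 and 7.82 in BALB/c (3.43-fold, adjusted p = 3.39e-07). Cnn1, a calponin that binds actin, was at 9.18, 9.19, 9.13 and 9.45 against 7.94, 8.16, 7.65 and 7.92 (2.49-fold, adjusted p = 1.11e-05). The remaining 4, the smooth muscle actins Actg2 and Acta2, the actin-binding Tagln and the filament protein Des, were 1.89-fold to 2.20-fold higher. For Myh11, Acta2 and Des a second, fainter probe set differed by 0.51, 0.12 and -0.14 and was not called. The summed intensity of the 6 was 7722 to 9440 on FVB arrays and 4029 to 4161 on BALB/c arrays. Under the alternatives 5 or 6 of them were called, and their median stayed between 0.94 and 1.15. In the other 4 strains Myh11 had means of 8.78 to 9.62 and Cnn1 of 8.61 to 9.21, so BALB/c was below all of them for both genes. Of 7 skeletal muscle markers only Acta1 was called (against 8.48% of all genes), and both strains had Myh4 and Mylpf near the bottom of the scale.

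Basal cell markers moved the same way with less certainty. Krt5, a keratin of basal cells, was at 7.61, 7.21, 7.08 and 7.24 in FVB and 6.55, 6.46, 6.73 and 6.90 in BALB/c (1.54-fold, adjusted p = 0.00595), without overlap. Krt15, Trp63 (the p63 transcription factor) and Col17a1 were also called higher, by 0.72, 0.50 and 0.84, and Krt14 differed by 0.53 and was not called. In all, 4 of 5 were called higher, against 4.35% of all genes. The summed intensity of the 5 markers was 421 to 495 in FVB and 251 to 292 in BALB/c. The number called fell from 4 to 1 when only the 8 arrays were fitted and to 2 under quantile normalization or with a pseudocount of 64, and Krt5 was called under all alternatives. Of 6 fibroblast markers, only the collagen Col1a2 was called (0.61 higher, adjusted p = 0.0257), against 8.48% of all genes. That call was lost without FVB replicate 1 or 4 or BALB/c replicate 2 or 3. Another 10 lists covered seminal vesicle, bladder urothelium, adipocytes, endothelium, macrophages, T cells, B and plasma cells, mast cells, red cells and nerve. None of their 40 markers was called by limma (against 8.48% of all genes), and 7 had an unadjusted p under 0.05. Of those 7, 3 were among the 5 B and plasma cell markers, whose median was -0.449: Ighm, the heavy chain of IgM, was at 6.13 to 6.50 in FVB and 6.66 to 8.23 in BALB/c (adjusted p = 0.0641, not called). The summed intensity of these 5 was 165 to 203 in FVB and 178 to 550 in BALB/c, and up to 2 of them were called lower under the alternatives. Adipocyte markers varied within both strains, with summed intensities of 309 to 3875 in FVB and 481 to 3714 in BALB/c, lowest on FVB replicate 1 and BALB/c replicate 2.

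**Figure D4:**
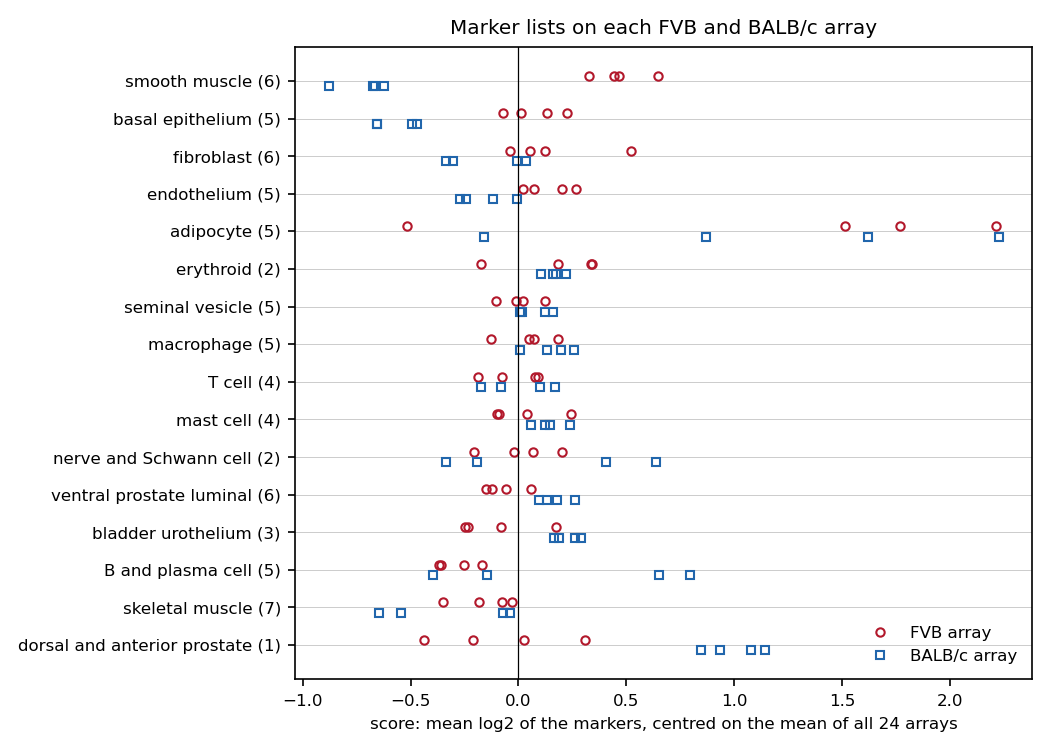
Scores of 16 marker lists on each FVB array (circles) and BALB/c array (squares); a score is the mean log2 level of the listed genes on an array after each gene was centred on its mean over all 24 arrays, and the number of genes is in parentheses. Circles and squares are farthest apart for smooth muscle, from 0.33 to 0.64 in FVB and from -0.88 to -0.62 in BALB/c, and the adipocyte score varies most within a strain.

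Luminal genes went both ways. Krt18, a keratin of luminal cells, was at 10.66 to 10.79 in FVB and 11.37 to 11.47 in BALB/c (1.62-fold lower, adjusted p = 4.48e-07), and Epcam, an epithelial adhesion molecule, at 10.06 to 10.50 and 11.09 to 11.17 (1.69-fold, adjusted p = 6.12e-06). Neither gene overlapped, and both calls were kept under all alternatives. Spdef, a transcription factor of secretory epithelium, fell by 0.82. Krt8, the partner of Krt18, differed by -0.18 and was not called, and the prostate transcription factor Hoxb13 was 0.35 higher in FVB, a call lost under 6 alternatives. Krt7, a keratin of simple epithelia, was 0.99 higher. In all, 4 of 22 luminal regulators were lower and 3 higher (against 4.13% and 4.35% of all genes). Their median was -0.060, and between -0.082 and 0.022 under the alternatives. The smooth muscle markers had summed intensities of 7722 to 9440 in FVB and 4029 to 4161 in BALB/c. They moved the opposite way to Krt18, Epcam and Spdef, and their part in these differences was not tested.

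Among the 12 measured secretions of the ventral lobe, Clu was higher and 4 were lower in FVB, against 4.35% and 4.13% of all genes. Pigr, the receptor that carries IgA into secretions, was at 11.97, 11.46, 11.22 and 10.91 in FVB and 12.46, 12.33, 12.47 and 12.50 in BALB/c (2.06-fold lower, adjusted p = 0.000267). Agr2, a disulfide isomerase needed for mucin folding, was 1.55-fold lower, and Gpx3, a secreted glutathione peroxidase, 1.69-fold lower, a call lost under quantile normalization (adjusted p = 0.166). Of the secretions listed for other lobes, Msmb, a secreted microseminoprotein, was at 12.34, 12.11, 12.86 and 12.57 in FVB and 13.63, 13.40, 13.48 and 13.69 in BALB/c (2.11-fold lower, adjusted p = 0.000572). 9530002B09Rik was 1.56-fold lower, a call lost under quantile normalization and with only the 8 arrays. The ventral secretions Spink1 and Pbsn differed by -0.40 and -0.75 and were not called. A secretoglobin, Scgb2b27, was 3.42-fold higher in FVB (adjusted p = 0.00642), but its FVB values of 10.32 to 11.37 overlapped the 10.57 of BALB/c replicate 3. That call was lost with only the 8 arrays. Of 34 genes of mucosal defence, 6 were lower (against 4.13% of all genes) and none higher. These were Fcgbp, Pigr, Spdef, Agr2, the lectin Lgals3 (by 1.06) and the membrane mucin Muc4 (near the bottom of the scale in both strains).

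Androgen-responsive genes changed in both directions. Of 19 measured, 4 were higher and 1 lower in FVB (26.3% called, against 8.48% of all genes). Fkbp5, a co-chaperone of steroid receptors and a common reporter of androgen action, was at 10.55, 10.35, 10.34 and 10.32 in FVB and 8.95, 8.88, 8.99 and 9.45 in BALB/c (2.50-fold higher, adjusted p = 9.29e-08), without overlap and at both probe sets. Odc1, the first enzyme of polyamine synthesis, was at 9.71 to 9.90 and 8.87 to 9.07 (1.78-fold, adjusted p = 1.29e-07), with all 3 probe sets called. Psca and Mme, described above, were the other large differences, and both strains had Hsd17b3 near the bottom of the scale. Tmprss2, Slc45a3, Ndrg1 and Steap4 differed by -0.15 to 0.21 and were not called at their brightest probe sets. For Ndrg1, 2 of 5 probe sets were called higher in FVB. Of 14 polyamine and methionine genes, 4 were higher, Odc1, Srm and Sat1 among them, and 1 lower (against 4.35% and 4.13% of all genes). The lower one was Adi1, with another probe set called the opposite way. Sat1, which breaks polyamines down, lost its call without FVB replicate 2 or BALB/c replicate 4.

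Among genes for protein folding in the endoplasmic reticulum, more were lower than higher in FVB. Of 35 measured, 11 were lower and 4 higher (against 4.13% and 4.35% of all genes). Their median was -0.195, and it was -0.0979 without rescaling and -0.0809 under quantile normalization. Under the alternatives the number lower was 9 to 13 and the number higher 1 to 6. Pdia6, a protein disulfide isomerase, was at 10.30, 10.39, 10.28 and 10.61 in FVB and 11.71, 11.48, 11.66 and 11.78 in BALB/c (2.40-fold lower, adjusted p = 2.78e-06). Its other probe set differed by -0.40 and was not called. Pdia4, another isomerase, was 2.14-fold lower at 1 of 2 probe sets, and Creld2, a secreted folding factor, 1.99-fold lower (adjusted p = 0.00248). The chaperone Hsp90b1 was at 9.90, 9.91, 9.79 and 10.02 in FVB and 10.84, 10.71, 10.95 and 10.86 in BALB/c (1.91-fold lower, adjusted p = 1.17e-05), with both probe sets called. None of these 4 genes overlapped between the strains. For all 4, BALB/c had the highest mean of the 6 strains, and FVB lay within the range of the others. Pdia6, for example, was at 11.66 in BALB/c, 10.39 in FVB, 10.03 in 129X1 and 11.24 in AKR. This did not hold for every lower gene: the FVB mean was the lowest for Dnajc3 and Pdia3, and SWR and C57BL/6 were above BALB/c for Edem1. The lower genes also included Dnajc3, Manf, Pdia3, Calr, Canx, Edem1 and Sec61b. The 4 higher genes were Ern1 and Herpud1, which sense and relieve misfolding, Sec24d, a coat protein, and Bhlha15, a transcription factor of secretory cells; each of these calls was lost under at least 1 alternative. Hspa5, the main chaperone of the compartment, and the transcription factor Xbp1 differed by -0.26 and -0.09 and were not called. Smooth muscle markers were higher in the same FVB arrays, with a median difference of 1.06, and their part in the folding genes was not tested.

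Many folding genes share a promoter element, the endoplasmic reticulum stress element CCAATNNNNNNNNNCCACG, which binds ATF6 together with NF-Y. It was searched on both strands of the 250 bases before each gene start in RefSeq (GRCm38.p6, a C57BL/6 genome, which is neither strain). It was found in 37 of 32851 promoters (0.113%). Of the 11 lower folding genes 10 had a promoter in the table, and 6 of these held the element; it was in none of the 4 higher genes and in 2 of the 16 others with a promoter, Hspa5 and Syvn1. Genes chosen for folding are known for this element, so its presence is a description of the list. The 4 sequences below are those of lower genes, written 5′ to 3′ in the direction of the gene, with the element in capitals; a match on the other strand reads CGTGG first. They lie at chr12:17266339-17266588 (+) for Pdia6, chr10:86705445-86705694 (-) for Hsp90b1, chr15:88819396-88819645 (+) for Creld2 and chr14:118937682-118937931 (+) for Dnajc3.
Pdia6: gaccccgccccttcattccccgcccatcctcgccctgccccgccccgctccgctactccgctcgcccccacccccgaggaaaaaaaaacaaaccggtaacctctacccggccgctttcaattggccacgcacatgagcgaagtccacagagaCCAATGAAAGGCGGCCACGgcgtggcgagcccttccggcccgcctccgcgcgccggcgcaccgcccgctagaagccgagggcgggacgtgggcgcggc
Hsp90b1: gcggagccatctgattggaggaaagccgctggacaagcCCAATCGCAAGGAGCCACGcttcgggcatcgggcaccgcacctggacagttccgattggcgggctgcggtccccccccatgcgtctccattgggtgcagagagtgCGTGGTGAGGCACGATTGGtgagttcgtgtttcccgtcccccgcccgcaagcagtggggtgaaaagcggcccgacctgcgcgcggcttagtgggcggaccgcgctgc
Creld2: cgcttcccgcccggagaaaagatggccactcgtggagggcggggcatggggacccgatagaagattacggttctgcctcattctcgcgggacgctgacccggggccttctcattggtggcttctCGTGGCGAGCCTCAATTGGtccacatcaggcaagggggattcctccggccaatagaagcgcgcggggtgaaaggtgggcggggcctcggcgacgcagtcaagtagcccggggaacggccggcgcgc
Dnajc3: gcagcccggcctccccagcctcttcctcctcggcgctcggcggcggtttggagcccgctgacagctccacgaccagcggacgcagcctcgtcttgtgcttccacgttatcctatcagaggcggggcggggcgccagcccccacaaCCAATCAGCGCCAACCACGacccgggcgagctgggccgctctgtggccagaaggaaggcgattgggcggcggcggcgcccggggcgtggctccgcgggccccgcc
Hsp90b1 holds 2 copies of the element, and each of the others has 1. Another 2 motifs were searched in the same way. The CArG box was searched only as CC, then 6 letters that are each A or T, then GG. In that strict form it was in 1.467% of promoters. It was in none of the smooth muscle promoters available, those of Acta2, Cnn1 and Des. Forms with another base between CC and GG were not searched, so these promoters may hold such forms. The letters TGCACNC or TGCGCNC, in 21.41% of promoters, were in those of Mt1 and Mt2 but not Mt3.

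Of 26 cytosolic ribosomal proteins, 8 were lower and 1 higher (against 4.13% and 4.35% of all genes), with a median of -0.320. Rpl11 was 1.46-fold lower (10.54 ± 0.11 against 11.09 ± 0.18, adjusted p = 0.00289), while Rps6, at 7.43 to 8.05 in FVB and 6.69 to 6.94 in BALB/c, was 1.78-fold higher. Under quantile normalization the median was -0.0271 and only Rpl11 was called lower, and with only the 8 arrays 2 were called lower. Of 39 genes of mitochondrial respiration, 9 were lower (against 4.13% of all genes) and none higher, with a median of -0.163. Under quantile normalization 4 of them were lower, with a median of -0.0687. Uqcrh, a subunit of complex III, was at 8.89 to 9.05 and 9.46 to 9.61 (1.47-fold lower, adjusted p = 1.85e-05), and Cox8a, of complex IV, was 1.64-fold lower. These lists sit at the bright end of the arrays, where BALB/c arrays had a larger share of their signal in the 20 brightest probe sets; the part of that share in the shift was not tested.

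**Figure D5:**
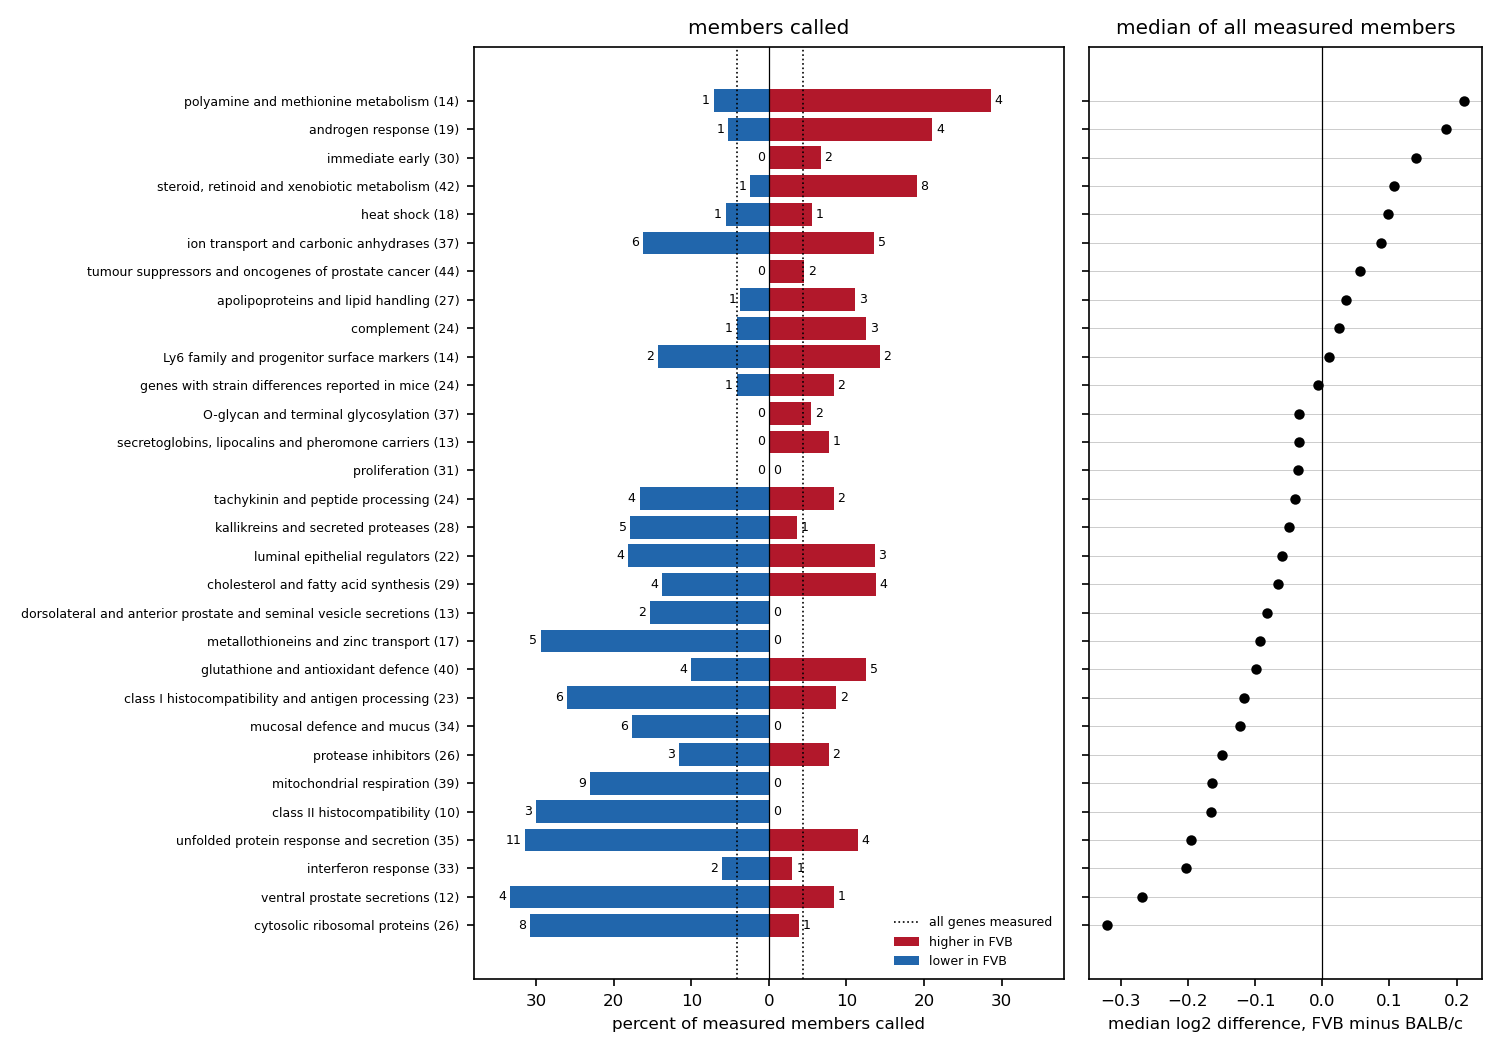
The left panel gives, for each of 30 gene lists (measured members in parentheses), the percent of members called higher in FVB (red, to the right) and lower (blue, to the left) with the count at each bar, and dotted lines at the 4.35% and 4.13% found over all genes. The right panel gives the median log2 difference of all measured members, from -0.320 for ribosomal proteins to 0.211 for polyamine and methionine metabolism.

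Of 42 enzymes that act on steroids, retinoids and foreign compounds, 8 were higher and 1 lower in FVB (against 4.35% and 4.13% of all genes). Their median was 0.106. Beside Cyp2b10, Fmo2, a flavin monooxygenase, was at 7.90, 7.96, 8.79 and 8.63 in FVB and 6.84, 6.37, 7.03 and 6.26 in BALB/c (3.24-fold, adjusted p = 3.64e-06). Hsd11b1, which regenerates active glucocorticoid, was 2.12-fold higher (7.61 to 8.05 against 6.61 to 6.85). The carboxylesterase Ces1d was 1.06 higher, with overlap, and its call was lost under 6 alternatives. Glutathione and antioxidant genes went both ways, with 5 higher and 4 lower of 40 (against 4.35% and 4.13% of all genes). Mgst1, the transferase Gstk1 (0.91, adjusted p = 1.71e-07) and glutathione reductase Gsr (0.76) were higher, and Gpx8 (-1.24) and Gpx3 (-0.76) lower.

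Metallothioneins, small proteins that bind zinc and copper, were lower in FVB. Mt1 was at 11.33, 11.20, 11.38 and 10.96 in FVB and 11.90, 11.96, 12.02 and 12.42 in BALB/c (1.81-fold lower, adjusted p = 0.00014). Mt2 was at 10.44 to 10.71 and 11.23 to 11.60 (1.81-fold, adjusted p = 3.58e-05). Mt3 was near the bottom of the scale in FVB, and the zinc importer Slc39a8 was 2.05-fold lower. Neither Mt1 nor Mt2 overlapped, and with Mt3 they are neighbours on the chromosome. Counting all 17 members measured, 5 were lower (against 4.13% of all genes) and none higher, and 3 to 5 were lower under the alternatives. Mt3 lost its call with a pseudocount of 64 and when FVB replicate 1 or 2, or the first BALB/c replicate, was left out.

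Of 29 genes of cholesterol and fatty acid synthesis, 4 were higher and 4 lower in FVB (against 4.35% and 4.13% of all genes). Scd1, a desaturase, was at 10.00, 10.59, 10.44 and 10.47 in FVB and 9.68, 9.01, 9.41 and 9.76 in BALB/c (1.88-fold, adjusted p = 0.000269), and its relative Scd2, the synthase Fasn and the desaturase Fads2 were 0.80, 0.68 and 0.60 higher. Sqle, Fdps and Nsdhl, enzymes of cholesterol synthesis, and Acss2, which makes acetyl-CoA, were lower by 0.59, 0.57, 0.36 and 0.45; the number lower fell from 4 to 1 without rescaling and to 2 with only the 8 arrays. Apod, a lipid-carrying apolipoprotein, was 3.06-fold higher (9.63 to 10.10 against 7.94 to 8.46). Adipocyte markers differed within strains more than between them, as given above, and on the 2 arrays where they were lowest Scd1 was also the lowest of its strain.

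Genes of peptide signalling and ion transport held some of the larger differences. With Mme and Tac1, the peptidases Anpep and Dpp4 were lower (by 0.90 and 0.87), and the convertases Furin and Ace higher (by 0.64 and 0.56). In all, 4 of 24 were lower and 2 higher, against 4.13% and 4.35% of all genes. The receptors Tacr1 and Tacr2 differed by -0.20 and -0.27 and were not called. In ion transport, 6 of 37 were lower and 5 higher (29.7% called, against 8.48% of all genes). Atp12a, a proton pump, was at 5.69 to 6.20 in FVB and 7.28 to 7.85 in BALB/c (2.92-fold lower, adjusted p = 2.47e-05), and the water channel Aqp8 was 1.13 lower. Kcnk3, a potassium channel, was at 7.37, 7.66, 7.61 and 7.13 in FVB and 5.25, 5.03, 6.50 and 6.02 in BALB/c (3.34-fold higher, adjusted p = 7.38e-05). AKR, SWR, 129X1 and C57BL/6 had Kcnk3 means of 7.88 to 9.12, so both FVB and BALB/c lay below them.

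Among surface and regulatory genes, Lgr5, a receptor for R-spondins that marks stem cells in several epithelia, was at 8.39, 8.02, 8.37 and 8.09 in FVB and 6.61, 7.10, 6.44 and 6.14 in BALB/c (3.13-fold, adjusted p = 5.92e-07). Of 14 Ly6 family and progenitor surface genes, 2 were higher and 2 lower (against 4.35% and 4.13% of all genes), with a median of 0.010. The higher ones were Lgr5 and Psca, and the lower ones Cd24a and Alcam, which differed by -0.79 and -0.61. B4galnt2, a glycosyltransferase, was 2.83-fold higher at both probe sets. Of 24 complement genes 4 were called (16.7%, against 8.48% of all genes). Those higher were Clu, the membrane inhibitor Cd59a (1.24) and the C1 inhibitor Serping1 (1.08), and Cd55 was 0.88 lower and near the bottom of the scale in FVB. Of 28 kallikreins and secreted proteases, 5 were lower and 1 higher (against 4.13% and 4.35% of all genes). Of 26 protease inhibitors, 3 were lower and 2 higher, against the same shares. In the proteases Mmp7 was 1.26 lower and Prss23 1.12 higher, and of the inhibitors Cst3 was 1.17 lower. Of 33 interferon-response genes 3 were called (9.09%, against 8.48% of all genes), with a median of -0.202: 2 were lower (Rsad2 and Oas1a) and 1 higher, Ifi202b, which was near the bottom of the scale in both strains. Oas1a lost its call under 5 alternatives and Ifi202b under 11.

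No proliferation gene of 31 was called by limma, against 8.48% of all genes. Of these 31, 4 had an unadjusted p under 0.05, and at most 1 was called under any alternative. Of 44 tumour suppressors and oncogenes of prostate cancer 2 were called (4.55%, against 8.48% of all genes). The cell cycle inhibitors Cdkn1a (0.73) and Cdkn2c (0.53) were higher, both with overlapping arrays and with calls lost under 4 alternatives each. Of 24 genes with reported strain differences, 3 (12.5%, against 8.48% of all genes) were called, H2-Ea, the kinase Wnk4 (0.75 higher) and Ifi202b. The Wnk4 call was lost with only the 8 arrays (adjusted p = 0.0712). The other 21 (Gpnmb, Apoa2, Cyp2d9, Trpm1, Mtor, Prkdc, Cdkn2a, Hc, Pde6b, Mx1, Il2, Tlr4, Slc11a1, Tyrp1, Afp, Mx2, Klra8, Tyr, Lpl, Ahr and Acads) differed by -0.40 to 0.71 and were not called. Along the chromosomes, 5.91% of called genes had a next measured gene called in the same direction, against 4.35% and 4.14% of placed genes called higher and lower, and 4.19% a next gene called the opposite way. There were 4 runs of 3 neighbouring genes and none longer: Mt3, Mt2 and Mt1; Col6a3, Mlph and Rab17 (both lower in FVB); Ephb6, Trpv6 and Kel; Egln2, Rab4b and Mia (both higher).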

How the data were processed

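The 24 arrays (6 strains, 4 each) were Affymetrix MOE430A, and the deposited table holds 1 linear intensity per probe set and array. The submitters' processing notes name MAS5 without a version, and its settings and a genome build are not given in the sources used here. Each array was rescaled to one 2% trimmed mean (98.7, from 91.4 to 105 as deposited), 16 was added and log2 taken. limma 3.58.1 (R 4.3.3) was fitted with a coefficient per strain on all 24 arrays, with an intensity trend in eBayes, and the FVB minus BALB/c contrast was adjusted by Benjamini-Hochberg over 22626 probe sets (threshold 0.05). All p-values printed are from this fit unless another setting is named. Of these probe sets 20380 had 1 symbol, 691 several and 1555 none, and 20351 matched RefSeq.

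The members and the gene lists were chosen with earlier results of these data known. Named genes were, among called probe sets with 1 symbol and no overlap between strains, the 15 with the largest difference in each direction, and up to 4 called members of each list by the same measure; other genes were named after their values were seen. The fit was tested on simulated data. Alternatives changed the pseudocount, low-value filter, scaling, variance trend, arrays used, probe set per gene and replicate block, or left out 1 array. Same-numbered arrays of the 2 strains correlated at -0.059, -0.057, -0.055 and 0.055 in their deviations, so numbers were not taken as pairs.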

Additional observations from a re-analysis of the deposited data

Results flagged for a closer look

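In 24 of 352 groups of 4 arrays (6.82%) 1 array stood far from the other 3, with a gap to the nearest of them that made up most of the group's range (Dixon's test at its 95% critical value); chance flags about 1 in 20 groups. The values are log2 levels or list scores.

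In FVB, replicate 1 was high for Otub1 (7.34 against 6.87 to 6.91), Fkbp5 (10.55 against 10.32 to 10.35) and Spdef (7.87 against 7.43 to 7.50). Replicate 3 was low for Ramp1 (7.55 against 7.71 to 7.72), Odc1 (9.71 against 9.87 to 9.90) and Epcam (10.06 against 10.43 to 10.50). Replicate 4 was high for H2-Q10 (5.08 against 4.26 to 4.39), Pdia3 (10.15 against 9.87 to 9.92) and Actg2 (8.78 against 8.11 to 8.22).

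In BALB/c, replicate 1 was high for Prss23 (5.85 against 5.31 to 5.39) and Scd2 (10.85 against 10.51 to 10.54). Replicate 2 was low for S100a4 (5.35 against 6.43 to 6.60) and Manf (10.62 against 11.00 to 11.06) and high for Tac1 (10.62 against 10.37 to 10.39). Hyou1 was high on replicate 3 (8.15 against 7.69 to 7.76) and Slc25a29 on replicate 4 (5.58 against 5.02 to 5.09).

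Among list scores, FVB replicate 1 was low for the interferon response (-0.262 against -0.138 to -0.129) and for apolipoproteins (0.0081 against 0.255 to 0.304). FVB replicate 3 was high for metallothioneins (-0.111 against -0.179 to -0.174). FVB replicate 4 was high for protease inhibitors (-0.049 against -0.134 to -0.122) and for protein folding (-0.028 against -0.056 to -0.052) and low for heat shock genes (-0.061 against 0.0024 to 0.0092). BALB/c replicate 1 was high for proliferation (0.153 against -0.077 to -0.041), and BALB/c replicate 4 was low for Ly6 family and progenitor markers (-0.305 against -0.080 to -0.058).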

How the results depend on the processing

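Over 133 called genes and 2125 gene-by-alternative fits, 1930 kept their direction and call, 195 lost the call and none turned; 90 genes were called under every alternative. The calls lost most often were those of Ifi202b (11 alternatives), Herpud1 (10) and Trp63 (10). With only the 8 arrays fitted, which leaves fewer residual degrees of freedom, 1080 probe sets were called, 569 higher and 511 lower in FVB, and 1034 of these were among the 1793. Without rescaling 1429 were higher and 584 lower, and the median of all probe sets moved to 0.066. The number at least 2-fold higher was 88 with a pseudocount of 64 and 359 with one of 4, and at least 2-fold lower 52 and 198; the larger pseudocount shrinks differences of faint probe sets by construction. Leaving out 1 array gave 1419 to 1728 calls. The replicate block gave 1784 calls, 936 higher and 848 lower; the replicate numbers are not known to pair the samples. A median over a gene list turned sign under some alternative in 17 of 46 lists, none of which had a median beyond 0.2 in either direction. Faint probe sets have no detection call, so their folds are uncertain.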
